A study of Rattus norvegicus with 4 samples.

Results

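Apoptotic caspases and their inhibitors were measured as 8 rat genes, chosen by name: the caspase genes Casp2, Casp6, Casp8 and Casp9, the caspase adaptor gene Apaf1, and the inhibitor genes Xiap, Birc2 and Cflar. Members were the non-control probes whose accession matched a RefSeq transcript of these genes, which gave 15 probes of 45598 on the array and 8 genes of 16581 with a named probe. Casp6 and Birc2 had 1 probe each, Casp2 had 3, and the other 5 genes had 2 each. The samples were 4 cultures of NR8383, a rat alveolar macrophage line first grown from lung lavage of a normal rat, after 20 passages. All 4 had been exposed to the multi-walled carbon nanotube NM403 for 4 h, at a dose of 0.8 cm² per cm², and are labelled as 4 biological replicates of 1 group. Unexposed cultures named in the design text were not analysed here, so nothing below shows a response to NM403, and no test between groups was possible.

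Apoptosis is carried out by caspases, proteases that are made as inactive precursors and cut their substrates next to aspartate. In the death receptor route, the adaptor FADD gathers caspase 8 at the membrane, where the caspase-like protein encoded by Cflar can block it. In the mitochondrial route, cytochrome c released from mitochondria makes APAF1 assemble into the apoptosome, which activates caspase 9. Both routes lead to effector caspases. XIAP can bind and inhibit some, but not all, of the caspases, while BIRC2 is a ubiquitin ligase that acts mainly on receptor signalling complexes. The precursors are held ready in most cells, and macrophages clear apoptotic neighbours as well as undergoing apoptosis themselves. The arrays read messenger RNA only and hold no measure of cleavage or of caspase activity.

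Each array was a 1-colour Agilent array with 62976 spots. Between 45.9% and 50.8% of the non-control spots on an array were well above background, as called by the scanner software, and no spot was saturated. Of 308 negative control spots per array, 7 to 11 were called well above background. A level below is the log2 intensity of a probe minus the 75th percentile, on the same array, of the probes detected on all 4 arrays. A level of 0 is thus a fairly bright probe, and the dimmest probes called above background read -6.23, -6.07, -5.85 and -5.63 (replicates 1 to 4). Replicate 4 was marked for evaluation by the scanner software. Of 10 measured macrophage markers, 8 were detected on all arrays, while Marco, a scavenger receptor gene, and Adgre1, which encodes F4/80, were not well above background on any. The labels do not say how the replicate cultures were kept apart, so each SD may hold culture and technical spread. In such bulk RNA, fewer cells with a transcript and less transcript per cell cannot be told apart.

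All 8 genes were detected on all 4 arrays by at least 1 probe, where 47.9% of all named genes were. Of their 15 probes, 13 were detected on all arrays, 1 on 3 arrays and 1 on none. The spread between arrays was unequal among the genes. Apaf1 ranged 2.57-fold between its highest and lowest array and Cflar 1.76-fold, whereas the brightest probes of Casp2, Casp8, Casp9 and Xiap ranged 1.08-fold to 1.11-fold. The ranges of Casp2, Casp8, Casp9 and Xiap rested on the scaling: they reached 1.20-fold, 1.39-fold, 1.41-fold and 1.37-fold with other scalings of the same arrays. By brightest probes, 1 of the 8 genes had a range above 2-fold, against 13.6% of the 7935 genes whose brightest probe was detected on all arrays. The median SD of the 8 genes was 0.120 on the log2 scale, and that of the 7935 genes was 0.234. With the 75th percentile of all non-control probes as scale, these medians were 0.204 and 0.353.

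**Figure D1:**
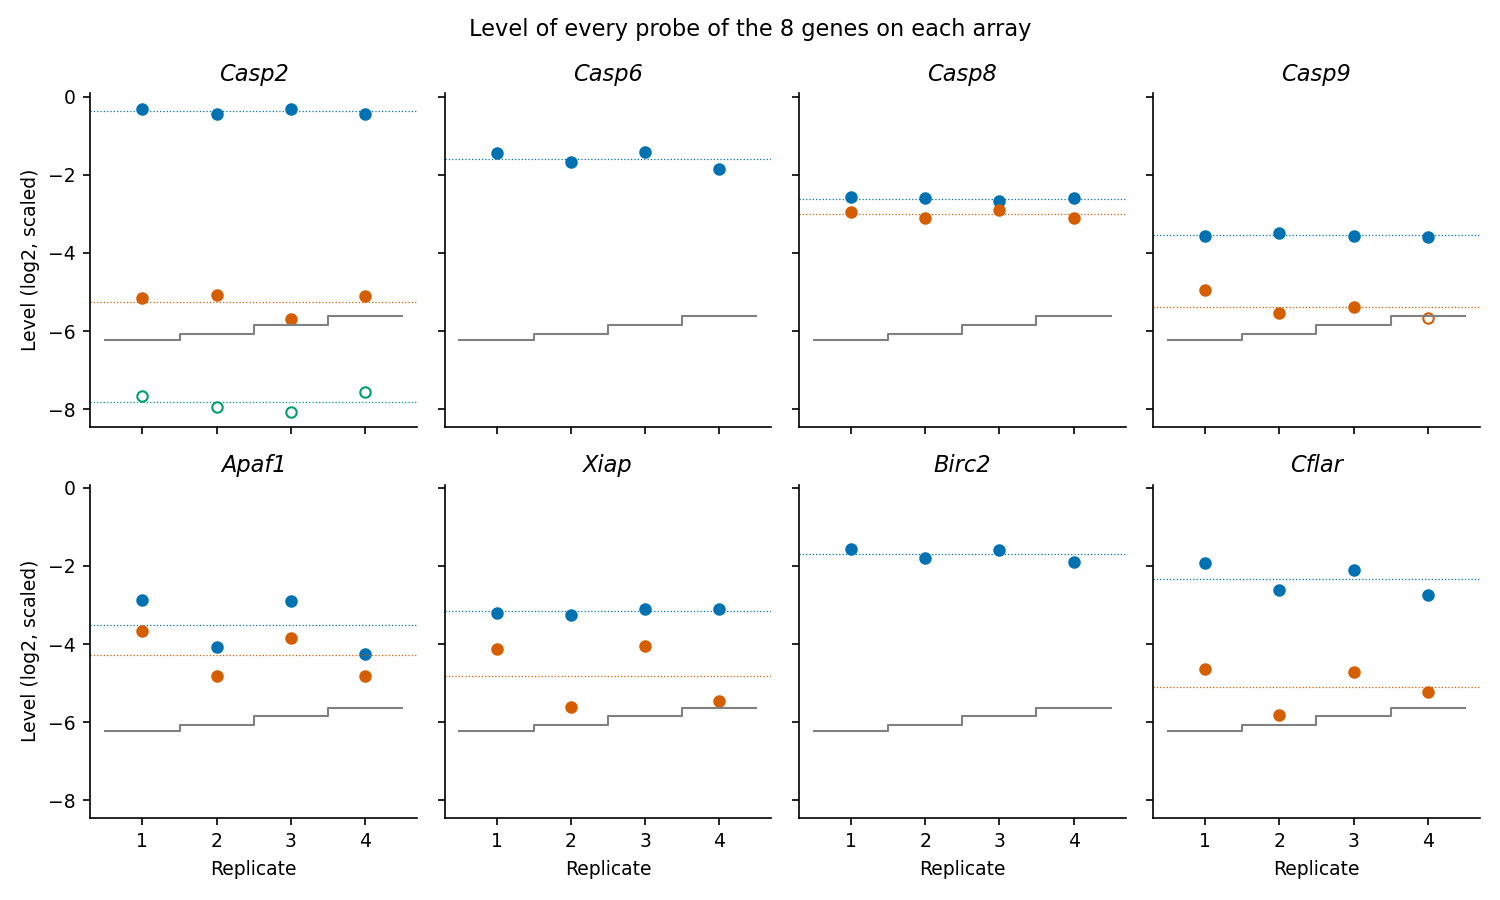
Each panel plots the level (log2, scaled to the 75th percentile of the detected probes) of every probe of a gene on replicates 1 to 4; filled points were detected, open points were not, dotted lines are the mean of a probe, and the grey steps are the dimmest level called on each array. Both Apaf1 probes and the dim Xiap probe read high on replicates 1 and 3, while the bright Xiap probe stayed between -3.24 and -3.10.

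Casp2 encodes an initiator caspase that is activated on a scaffold of PIDD1 and CRADD. Its brightest probe, printed 2 times per array, read -0.31 and -0.32 on replicates 1 and 3, and -0.44 on both replicates 2 and 4. Replicates 1 and 3 read higher by little, in an order that turned with the scaling, and the SD was 0.07. A second Casp2 probe was much dimmer and read -5.16, -5.09, -5.69 and -5.10 on replicates 1 to 4. With this scaling it was low on replicate 3 alone, where it lay close to the dimmest called level, and its SD of 0.29 fell to 0.041 without that replicate. With quantile normalization it read -5.37, -4.82, -5.94 and -4.90, low on replicate 1 too, and its range went from 1.11-fold to 2.19-fold over the scalings tried. The third Casp2 probe, between -8.06 and -7.56, was called on 0 arrays. All 3 probes carry the same accession.

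Casp8, the initiator caspase of the death receptor route, read -2.56, -2.60, -2.68 and -2.59 on replicates 1 to 4 with its brighter probe. The SD was 0.05, and 3.78% of the 7935 genes had a smaller one; replicate 3 alone stood slightly low, with an SD of 0.021 when it was left out. The other Casp8 probe read -2.95, -3.10, -2.90 and -3.10, a 1.15-fold range in which replicates 1 and 3 were the higher with this scaling. With this scaling the probes gave no common order of the arrays. With the 75th percentile of all non-control probes and with quantile normalization, both probes read lower on replicates 1 and 3, and the SD of the brighter one was 0.235 and 0.193.

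Casp9, the initiator caspase of the apoptosome, was as even as Casp8 with this scaling. Its brighter probe read -3.57, -3.48, -3.57 and -3.59 on replicates 1 to 4, with an SD of 0.05 and a 1.08-fold range. Replicate 2 was the highest, and without it the SD was 0.013. Its SD was 0.239 with the 75th percentile of all non-control probes, 0.249 with quantile normalization and 0.151 with the median of the detected probes, so its evenness did not hold under these scalings. The dimmer Casp9 probe read -4.94, -5.54, -5.40 and -5.67, with an SD of 0.32 that was 0.137 without replicate 1. It was detected on 3 arrays and not on replicate 4, where its intensity of 54.5 was about that on replicate 2 (54.0), but where the dimmest called level was also the highest.

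Casp6 encodes an effector caspase known for cutting nuclear lamins. Its single probe read -1.44, -1.66, -1.40 and -1.86 on replicates 1 to 4. Replicates 1 and 3 were above the others with this scaling, though not with every one, and the range was 1.37-fold. The SD was 0.21, near the median of all genes, and 0.139 without replicate 4.

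Apaf1, the scaffold of the apoptosome, was the most uneven of the 8 genes by brightest probe. That probe read -2.88 and -2.89 on replicates 1 and 3, and -4.08 and -4.24 on replicates 2 and 4. Replicates 1 and 3 lay together and well above replicates 2 and 4, and the SD of 0.74 exceeded that of 94.6% of the 7935 genes. The other Apaf1 probe gave the same order of pairs, at -3.68, -4.82, -3.83 and -4.82, with a 2.20-fold range. With the other scalings and with normexp its range was below 2-fold, at 1.60-fold to 1.91-fold. The log2 distance between both probes ran from 0.57 to 0.95 over the arrays, so they moved nearly in parallel. On the arrays high for Apaf1 more non-control spots were above background, 50.8% on replicate 1 and 49.6% on replicate 3 against 47.5% on replicate 2 and 45.9% on replicate 4. Of 4 fibroblast markers, Dcn was detected on all arrays, at -1.67, -2.08, -1.72 and -2.05. Col1a2 was detected on 2 arrays, at -4.72, -6.28, -4.83 and -6.11, and Col1a1 and Pdgfra on none. Both Dcn and Col1a2 thus read higher on replicates 1 and 3. Among macrophage markers, Ptprc (2.16, 0.77, 2.11 and 0.81), Itgam and Csf1r were also higher on replicates 1 and 3. Cd68, Spi1, Mrc1 and Fcgr3a were lower there, and Siglec1 overlapped. Of all 7935 genes, 34.5% had replicates 1 and 3 higher. The part of the spot and marker differences in the Apaf1 readings was not tested.

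Apaf1 and Cflar kept replicates 1 and 3 above the others under every scaling tried, and their start regions are shown for that reason beside that of Casp9, the apoptosome partner of Apaf1, which did not. Over all genes, replicates 1 and 3 were the higher in 19.0% to 34.5%, depending on the scaling. The RefSeq promoter table (build GRCr8) held 6 of the 8 genes. The windows are the 250 bases before the annotated start, 5′ to 3′ on the strand of the gene, with GGGCGG or its reverse complement (a GC box) in capitals. Apaf1 is on chr7:27466773-27467022, minus strand, Casp9 on chr5:159391824-159392073, plus strand, and Cflar on chr9:67679299-67679548, plus strand.
Apaf1: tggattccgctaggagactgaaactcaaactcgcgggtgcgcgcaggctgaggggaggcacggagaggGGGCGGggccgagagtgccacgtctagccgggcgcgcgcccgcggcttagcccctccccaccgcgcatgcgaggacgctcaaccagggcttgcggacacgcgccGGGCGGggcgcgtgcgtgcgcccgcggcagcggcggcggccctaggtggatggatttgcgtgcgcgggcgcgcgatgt
Casp9: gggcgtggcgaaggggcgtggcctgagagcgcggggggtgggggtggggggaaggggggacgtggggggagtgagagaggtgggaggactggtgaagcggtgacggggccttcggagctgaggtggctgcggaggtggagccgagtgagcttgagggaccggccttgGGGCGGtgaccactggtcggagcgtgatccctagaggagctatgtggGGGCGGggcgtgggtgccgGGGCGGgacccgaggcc
Cflar: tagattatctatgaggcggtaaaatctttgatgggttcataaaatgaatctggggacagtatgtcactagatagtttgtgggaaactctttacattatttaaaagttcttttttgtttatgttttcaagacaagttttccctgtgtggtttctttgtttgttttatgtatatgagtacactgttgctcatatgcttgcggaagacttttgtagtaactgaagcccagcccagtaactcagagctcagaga
The Apaf1 window held 2 GC boxes and the Casp9 window 3, with GC contents of 74.0% and 73.2%. Casp2 and Casp6 held 1 each, and Cflar and Birc2 held none, with GC contents of 36.0% and 34.4%. A GC box was present in 30.5% of 33469 promoter windows of this length, whose median GC content was 51.2%. CCAAT was found in the Casp2 and Birc2 windows and in 34.0% of all windows, and TATAAA in the Birc2 window and in 12.9% of all windows, on either strand, with no overlap between motifs. These are matches of letters in a window of another build than that of the array, and their relation to the readings was not tested.

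Xiap encodes the inhibitor that binds caspases directly, and its 2 probes disagreed. The brighter probe read -3.20, -3.24, -3.11 and -3.10, with this scaling an even 1.11-fold range and an SD of 0.07. With the 75th percentile of all non-control probes its range was 1.37-fold and its SD 0.213. The dimmer probe read -4.12, -5.61, -4.05 and -5.46, a 2.95-fold range in which replicates 1 and 3 stood far above replicates 2 and 4. Its SD of 0.84 was larger than that of 96.5% of the genes. On replicates 2 and 4 it lay within 0.5 of the dimmest called level, with a spot intensity 2.27 and 2.71 times the local background, but it was called on all 4 arrays. The distance between the probes was 0.92 and 0.94 on replicates 1 and 3, and 2.37 on both replicates 2 and 4. Both probes carry the same accession, and which of them follows the level of the Xiap transcript was not tested.

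Birc2 encodes the inhibitor of apoptosis protein cIAP1. Its single probe read -1.55, -1.79, -1.58 and -1.90, with an SD of 0.17 and a 1.27-fold range, and replicates 1 and 3 were again the higher with this scaling. Birc3, its close paralog and next protein-coding neighbour on chromosome 8, lay near the limit of detection at -5.63, -5.84, -5.74 and -5.19 and was highest on replicate 4. RefSeq also lists the name Birc2 as a synonym of Birc3, so the probes were told apart by accession, and cross-hybridisation between the paralogs was not tested.

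Cflar encodes the caspase-like inhibitor of caspase 8 and lies next to Casp8 on chromosome 9. Its brighter probe read -1.92, -2.60, -2.12 and -2.74 on replicates 1 to 4, with an SD of 0.39. Replicates 1 and 3 were the higher, and the range was 1.76-fold. The other probe, which carries the accession of a different Cflar transcript, read -4.65, -5.81, -4.72 and -5.22, a 2.24-fold range in the same order of pairs. With the other scalings and with normexp its range was 1.44-fold to 1.92-fold. Its SD was 0.54, and 0.311 without replicate 2, where it lay close to the dimmest called level. The ranges of the neighbouring Casp8 were smaller with this scaling, at 1.09-fold and 1.15-fold. With the 75th percentile of all non-control probes the brighter probes ranged alike, Casp8 1.39-fold and Cflar 1.38-fold, in opposite orders of the arrays.

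**Figure D2:**
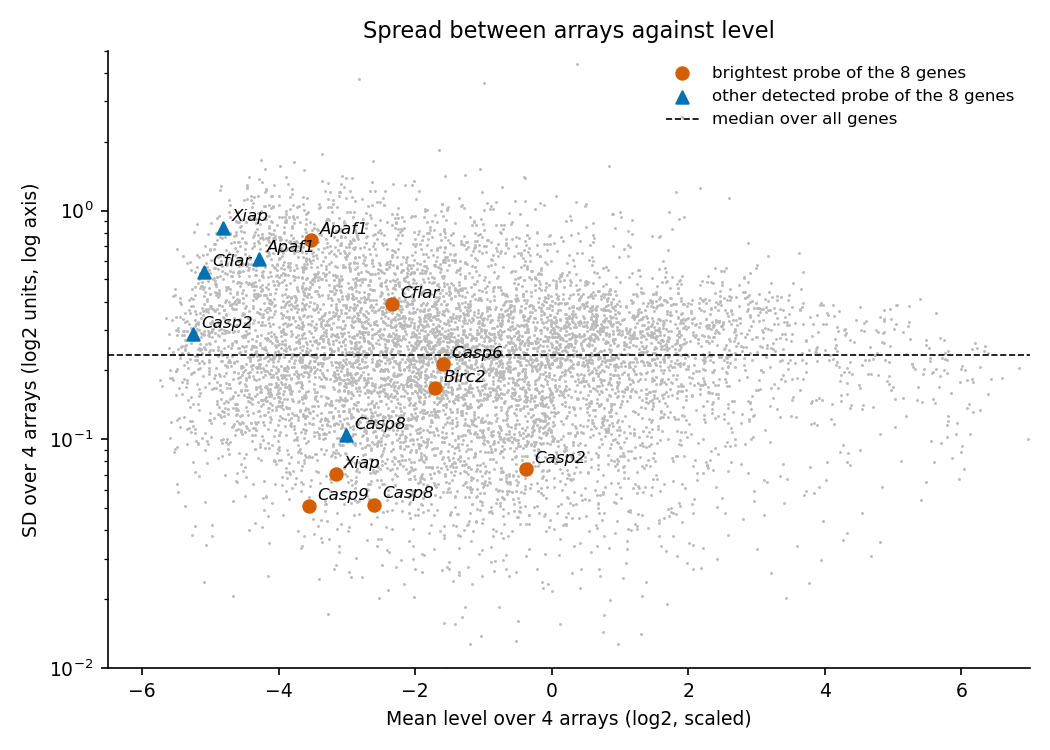
The SD over the 4 arrays (log2 units, log axis) is plotted against the mean level of the 7935 genes (grey), of the brightest probes of the 8 genes (circles) and of their other detected probes (triangles), with the median SD as a dashed line. With this scaling Apaf1 and Cflar lie above the median line of 0.234 with both probes, and the brightest probes of Casp8 and Casp9 near the lower edge; with the 75th percentile of all non-control probes Cflar (0.195) lay below the median of 0.353, as did Casp8 (0.235) and Casp9 (0.239).

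Across the arrays, 5 of the 8 genes (Casp2, Casp6, Apaf1, Birc2 and Cflar) had both readings of replicates 1 and 3 above both readings of replicates 2 and 4, an order that only Apaf1 and Cflar among them kept under every scaling tried. Over all 7935 genes, replicates 1 and 3 were set apart from replicates 2 and 4 in either direction in 81.8%, with replicates 1 and 3 the higher in 34.5%, so such an order was common. The pairs of replicates are not groups of the study, and the order carries no test. Between replicates 1 and 3 the median absolute difference of the 8 genes was 0.03 and between replicates 2 and 4 it was 0.12, against 0.17 to 0.24 in the other 4 pairs of arrays. Over all 7935 genes these medians were 0.07, 0.09 and 0.36 to 0.38, so the pairing was general. Of the 8 genes, Apaf1 alone exceeded 2-fold in any pair by brightest probe, and did so in 4 of the 6 pairs. In each of those 4 pairs, 8.8% to 9.9% of all genes exceeded 2-fold. All these values are of brightest probes. With this scaling the dim Xiap probe ranged 2.95-fold and the other Cflar probe 2.24-fold between arrays.

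The order of the arrays depended on the scaling for most of the genes. Scaling on the 75th percentile of all non-control probes moved the median gene by -0.17, 0.19, -0.20 and 0.18, in the order of the replicate numbers. Apaf1 and Cflar kept replicates 1 and 3 above replicates 2 and 4 with that scaling, with the median of the detected probes, with quantile normalization and with normexp background correction. Over all genes, the shares with that order were 19.0%, 24.6%, 27.7% and 33.8%, in the same sequence of scalings. Casp8, Casp9 and the bright Xiap probe, whose readings overlapped before, had replicates 1 and 3 below the others with the first 3 of these scalings. Casp2 turned to that order with 2 of them, and so did Birc2 with the percentile over all probes. The brightest Apaf1 probe ranged between 2.01-fold and 2.57-fold over these scalings and that of Cflar between 1.38-fold and 1.76-fold. The dim Xiap probe kept its order, with a range between 1.99-fold and 2.95-fold.

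**Figure D3:**
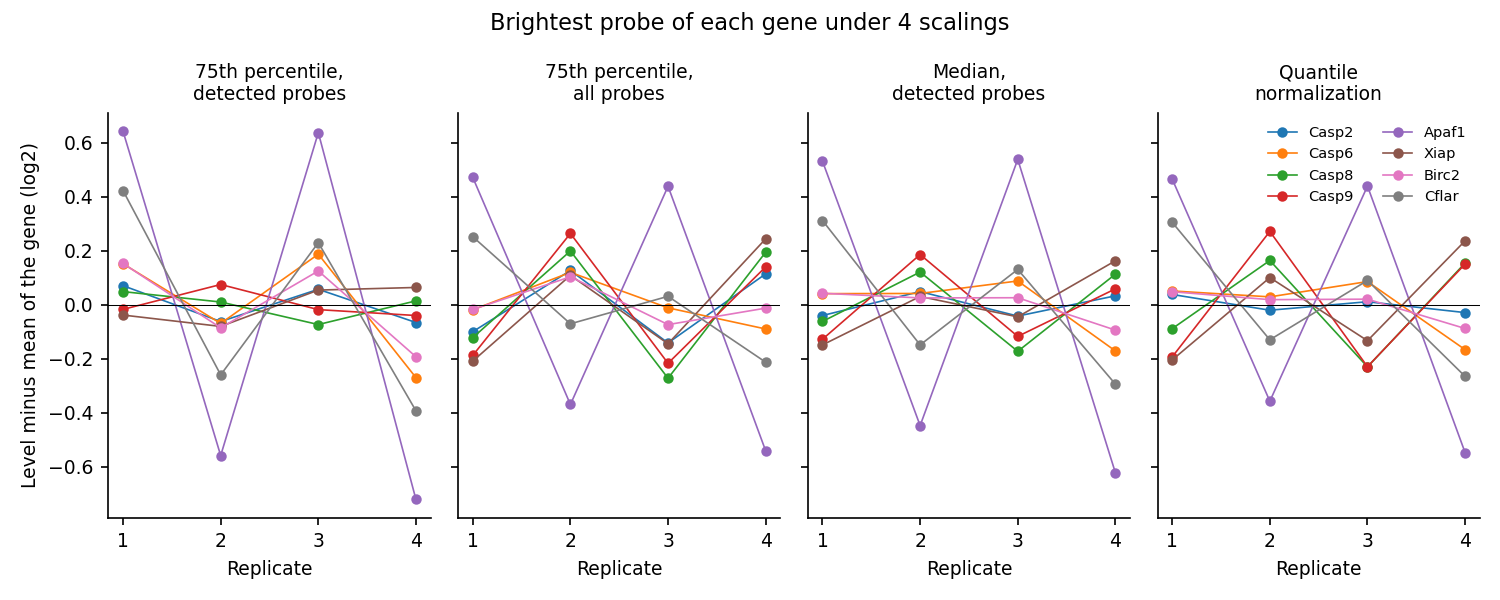
The level of the brightest probe of each gene minus its own mean over the 4 arrays (log2) is plotted by replicate under 4 scalings; lines only link the points of a gene. Apaf1 and Cflar keep their order in every panel, whereas Casp8, Casp9 and Xiap are nearly flat in the first panel and turn low on replicates 1 and 3 in the others.

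Other genes of the pathway came from a list of 34, of which 30 were measured. Of these, 24 passed detection on every array (47.9% of all named genes did), 1 on some and 5 on none. Their median SD was 0.227, and 12 of the 24 lay below the median of all genes, as did 6 of the 8 caspase and inhibitor genes (5 with normexp, 7 with each of the other scalings). Of the 24, 4 ranged above 2-fold (Fadd, Bag1, Cycs and Casp4), a share close to the 13.6% of the 7935 genes. With the median of the detected probes as scale the count was 2 (Fadd and Bag1), where 13.0% of all genes had such a range. With normexp it was 2 (Bag1 and Cyld, a deubiquitinase gene), where 9.42% did. It was 3 with the 75th percentile of all non-control probes (Fadd, Diablo and Bag1) and with quantile normalization (Fadd, Cycs and Birc3). Of all genes, 18.5% and 13.4% had such a range with these 2 scalings. The count was 2 without replicate 2 (Fadd and Cycs) and 1 without replicate 4 (Fadd).

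Of 4 other caspase genes on the list, 3 were detected on all arrays. The inflammatory caspase gene Casp4 read -0.88, -1.89, -0.93 and -1.83, a 2.01-fold range in the order of Apaf1. Its range was not above 2-fold with any other scaling or with normexp. Casp14, a caspase gene of the skin, was called on no array.

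Of 11 measured receptors, ligands and adaptors, 8 were detected on all arrays, among them the receptor genes Tnfrsf1a, at 1.85 ± 0.17 (SD, n = 4), and Fas, at -4.57 ± 0.12. Faslg and Tnfsf10, the ligand genes, did not rise well above background anywhere. Fadd, the adaptor of caspase 8, read -3.25, -4.14, -4.35 and -3.26, a 2.14-fold range. Its high arrays were replicates 1 and 4, which set it apart from the order seen in Apaf1, and it fell below a 2-fold range without replicate 3. Cradd, the adaptor of caspase 2, was not detected either, at -8.23 to -7.86, whereas its partner Pidd1 was detected on all, at -0.99 ± 0.20.

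All 5 mitochondrial factors were detected on all arrays. Cycs, which encodes cytochrome c, the activator of APAF1, read 1.71, 0.83, 1.76 and 0.74, a 2.02-fold range with replicates 1 and 3 high. Of the other scalings and normexp, only quantile normalization kept that range above 2-fold. The other Cycs probe ranged 1.51-fold in the same order. Diablo, whose protein relieves inhibition by XIAP, read 0.69, 1.28, 0.66 and 1.31, with replicates 2 and 4 high. Of the other inhibitors, Birc5 (survivin) was even at -1.03 ± 0.06, Bag1, a cochaperone gene, read 0.88, 1.21, 0.51 and 0.18, a 2.03-fold range, and Birc6 was detected on replicates 1 and 3 only. Of 5 measured caspase substrates, 4 were detected on all arrays, and Gas2 on none.

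**Figure D4:**
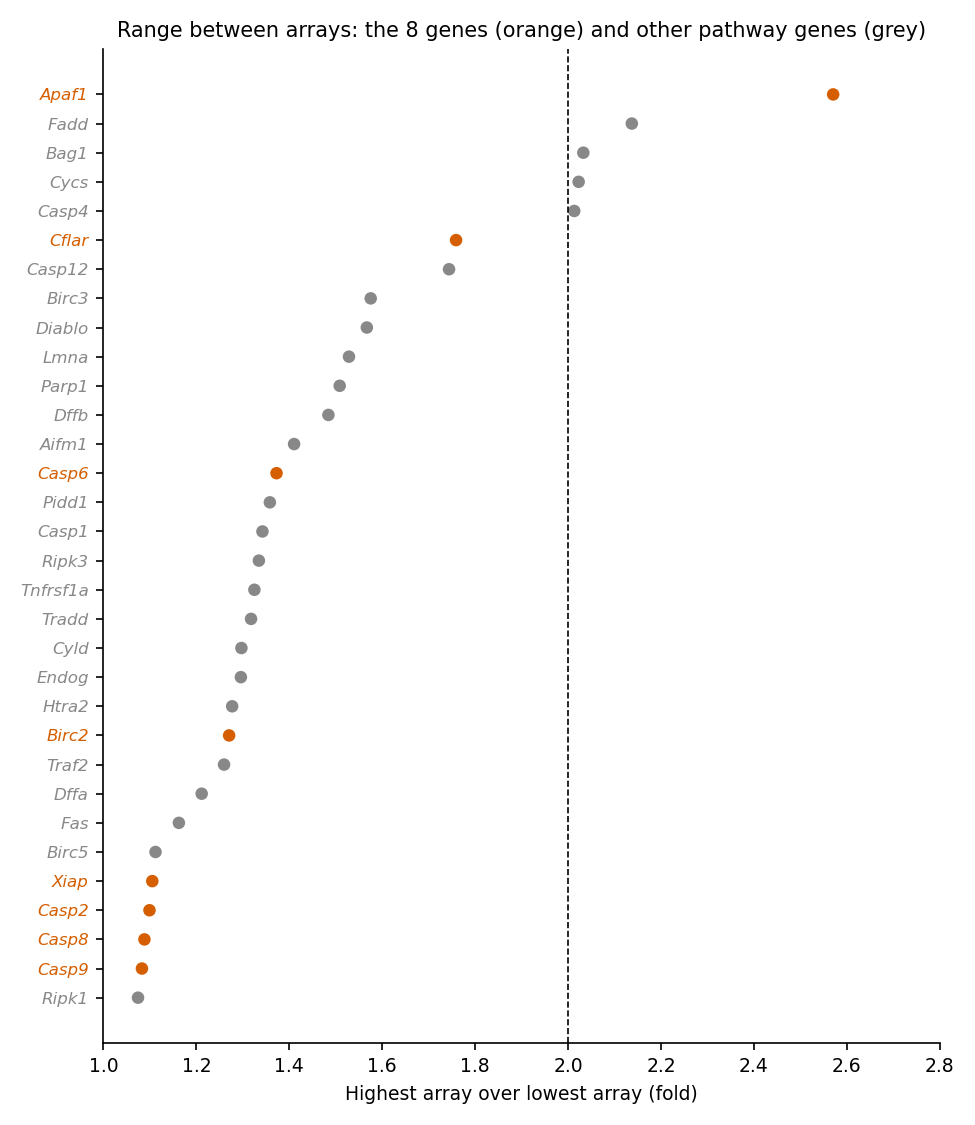
The fold between the highest and the lowest array is plotted for the brightest probe of the 8 genes (orange) and of 24 other pathway genes (grey) detected on all arrays, with the dashed line at 2-fold. Apaf1 stands farthest right at 2.57-fold, and Casp9, Casp8, Casp2 and Xiap lie between 1.08-fold and 1.11-fold.

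Likeness between genes was measured as the root mean square difference of the 4 levels, each centred on its gene mean, over the 4 arrays. Within the 8 genes and the pathway list, the gene nearest to Apaf1 was Cycs, at 0.168. Of the 7934 genes other than Apaf1, 422, Cycs included, were at least as near. Casp6 was nearest to Pidd1 at 0.029, with 11 of all genes, Pidd1 included, at least as near. Birc2 was also nearest to Pidd1, at 0.041. Casp8 and Xiap were nearest to Ripk1, at 0.033 and 0.072, Casp9 to Birc5 at 0.047, Casp2 to Fas at 0.039 and Cflar to Aifm1 at 0.125. With 4 arrays that fell into pairs, many genes were as near, and these values describe the arrays only.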

How the data were processed

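Total RNA (100 ng) of 4 exposed cultures was labelled with Cy3 and hybridised to 4 arrays on 1 slide. The deposited files hold spot intensities written by the scanner software (Agilent Feature Extraction, version 11.0.1.1 in the submitters' processing notes). As deposited, per the file headers, the processed intensity had background subtracted and trends across each array removed, nothing was done between arrays, and the array design names build rn4. The deposited files also hold 0 or 1 flags of that software (other columns). Control and outlier spots (623 to 1016 outliers per array) were left out, spots of a probe averaged on the log2 scale, and 21109 of 45598 probes named by accession, without version, through the RefSeq table of GRCr8. A probe was detected where over 50% of its spots were well above background. Since 34.2% of the probes were detected on all arrays, each array was scaled on the 75th percentile of those probes, which hides any change in total messenger RNA. A gene took its brightest probe.

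There was 1 group, so no test was made. Named genes were the 8 genes, those of the pathway list with a range above 2-fold or not detected, fixed examples, and the nearest gene of each. The members and lists were chosen with earlier results of these data known. Tnfrsf1a, Birc6 and Cyld are outside that rule and were chosen after their values were seen. Of the other-cell markers, 0 of 5 epithelial, 1 of 4 fibroblast, 1 of 3 endothelial, 1 of 4 T cell and 0 of 3 neutrophil genes were detected on all arrays. Some genes first placed on the pathway list are not reported here. Scaling and ranges were tested on simulated data. Alternatives were other scalings, quantile normalization and normexp (limma 3.58.1, offset 50, on median spot and background intensity; mean spot intensity was not used here), other rules on probes and flags, and leaving out each replicate. Python 3.11.15 with numpy and pandas was used.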

Additional observations from a re-analysis of the deposited data

Results flagged for a closer look

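Within 13 probes of the 8 genes detected on all arrays, 1 had an array far from the other 3: on replicate 3 the dim Casp2 probe had a level of -5.69, where the other 3 arrays lay between -5.16 and -5.09, and the gap to the nearest was 0.874 of its whole range. Over the 7935 genes 2.02% had such an array, and chance alone flags about 1 in 20 groups. With the other 3 scalings and with normexp the gap was 0.507 to 0.633 of the range, under the critical value for 4 arrays, so the array stood apart with this scaling only. The brightest Casp2 probe did not stand apart on replicate 3.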

How the results depend on the processing

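No paired analysis was possible because there was 1 group. Detection on all arrays held for 8 of the 8 genes when each replicate was left out and for 6 when every probe of a gene had to be detected. Apaf1 had a range above 2-fold, and was the only one of the 8, under 12 alternatives (detection rules, scalings, normexp, the mean over probes and each replicate left out). Among these, the rule that every probe of a gene be detected could not change a range. Over all genes, 9.42% (normexp) to 18.5% (percentile over all probes) had such a range. That share was not computed with a replicate left out. With the dimmest detected probe, an alternative added after seeing the data, 3 of the 8 had such a range (Apaf1, Xiap and Cflar), and 14.4% of all genes. The median SD of the 8 genes was 0.204 with the percentile over all probes (all genes 0.353), 0.199 with quantile normalization (0.252), 0.190 with the mean over probes (0.231) and 0.250 with the dimmest probe, there above that of all genes (0.236), and 0.0939 to 0.134 when a replicate was left out. All 8 genes set replicates 1 and 3 apart from 2 and 4 with quantile normalization, in either direction, as did 85.4% of all genes. Of the pathway genes, 2 had a range above 2-fold with the median as scale (all genes 13.0%) and 2 with normexp (9.42%). The count was 1 to 3 when a replicate was left out. The cause of these moves was not tested. Dim probes near the detection limit, such as those of Xiap, Casp9 and Casp2, limit what can be read from them: 26 repeated probes below -4 had a median SD of 0.164 between spots of an array.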
